A study of Arabidopsis thaliana with 4 samples.

Results

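The 51 genes described here encode proteins of the cytosolic ribosome of *Arabidopsis thaliana*, 36 for the large subunit and 15 for the small subunit, out of 33544 genes in the tables. They were chosen by locus identifier, for 28 proteins, and no level or difference enters the rule. Since results of these libraries were known when the genes were chosen, the members' values are given as a description and no test is made over them as a group. All 51 were found, and all 51 reached the minimum for testing of 1 FPKM (fragments per kilobase of transcript, scaled to the fragments in the library) in at least 2 libraries. FPKM is a level per transcript length, so levels of different genes can be set side by side.

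A ribosome is assembled from ribosomal RNA and a copy of each ribosomal protein. The large subunit joins amino acids, and the small subunit reads the messenger RNA. In plants nearly every cytosolic ribosomal protein is encoded by several nuclear genes, called paralogs here, whose products are nearly the same. Messenger RNAs of these genes are among the most abundant in growing tissue, and their amount follows growth, sugar supply and signalling through the kinase TOR.

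Polyadenylated RNA was sequenced from whole seedlings at 14 days of 2 genotypes, with 2 libraries each, numbered 1 and 2. The wild type was accession Col-0. The mutant, *ect2*, was a T-DNA insertion line in *ECT2* in the Col-0 background, the only mutant line used, whose allele the labels do not name, and the product of *ECT2* recognises methylated adenosines in RNA through its YTH domain. Both genotypes were grown under long days without further treatment, on Murashige and Skoog medium or soil. The labels do not say whether the replicates came from separately grown plants, so any p-value measures only the spread between these libraries.

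*ECT2* itself stood at 137 and 76.7 FPKM (Col-0) and 9.07 and 8.58 FPKM (*ect2*), so the values follow the labels. The number of reads is not given. The steps between values under 0.4 FPKM, in 997 to 1103 genes, gave depths relative to Col-0 replicate 2 of 1.45 for Col-0 replicate 1, 1.38 for *ect2* replicate 1 and 0.973 for *ect2* replicate 2. A single gene, AT2G01021, held between 23.8% and 36.8% of the summed FPKM of a library. Col-0 replicate 1 stood apart from the other 3 libraries in marker genes for seed storage and sugar starvation. Its 10 seed storage marker genes summed to 303 FPKM, against 7.35 to 11.9 FPKM in the others, and its 8 sugar starvation genes summed to 510.4 FPKM, against 3058 to 7278 FPKM. None of these markers was at 0 in all 4 libraries. The 6 leaf photosynthesis markers summed to between 59672 and 65164 FPKM and the 6 root markers to between 139.8 and 191 FPKM, so markers of shoot and root were both present. Single root markers differed between genotypes in both directions, from -2.45 to 0.877 (*ect2* minus Col-0, log2(FPKM + 1)). Their median difference was -0.14, and -0.0107 without Col-0 replicate 1. Both *ect2* libraries lay below both Col-0 libraries in 3 of the 6 root markers and above them in 1. Whether root content differed between libraries was not tested. Because Col-0 replicate 1 stood apart, differences between genotypes are given with and without it where they are printed.

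The members were highly expressed, with 1 exception. Of the 51, 44 lay at or above the 95th percentile of mean FPKM among the 19308 genes tested, and the second lowest lay at percentile 80.2. AT2G01021 made up 27.7% and 33.0% of the summed FPKM in Col-0 and 23.8% and 36.8% in *ect2*, which affects any share of that sum. The members summed to 28327 and 22433.5 FPKM (Col-0) and to 20415 and 20174 FPKM (*ect2*). Together they held 1.61% of the summed FPKM in Col-0 replicate 1, 1.05% in Col-0 replicate 2, 1.09% in *ect2* replicate 1 and 0.959% in *ect2* replicate 2. The highest was AT5G20290, a gene for S8 on chromosome 5 (6851341 to 6853106, minus strand, TAIR10.1), listed at 1528 and 1233 FPKM (Col-0) and 1049 and 1072 FPKM (*ect2*). Next came *EMB2296* (AT2G18020), a gene for L8, a core protein near the site where peptide bonds form, at 1458 and 954 FPKM (Col-0) and 974 and 998 FPKM (*ect2*). *SAC52* (AT1G14320), a gene for L10, which joins the large subunit late in assembly, was listed at 1117 and 825 FPKM (Col-0) and 767 and 816 FPKM (*ect2*). In all 3 genes the highest value was that of Col-0 replicate 1, and only for *EMB2296* did the other Col-0 library fall below both *ect2* libraries.

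**Figure D1:**
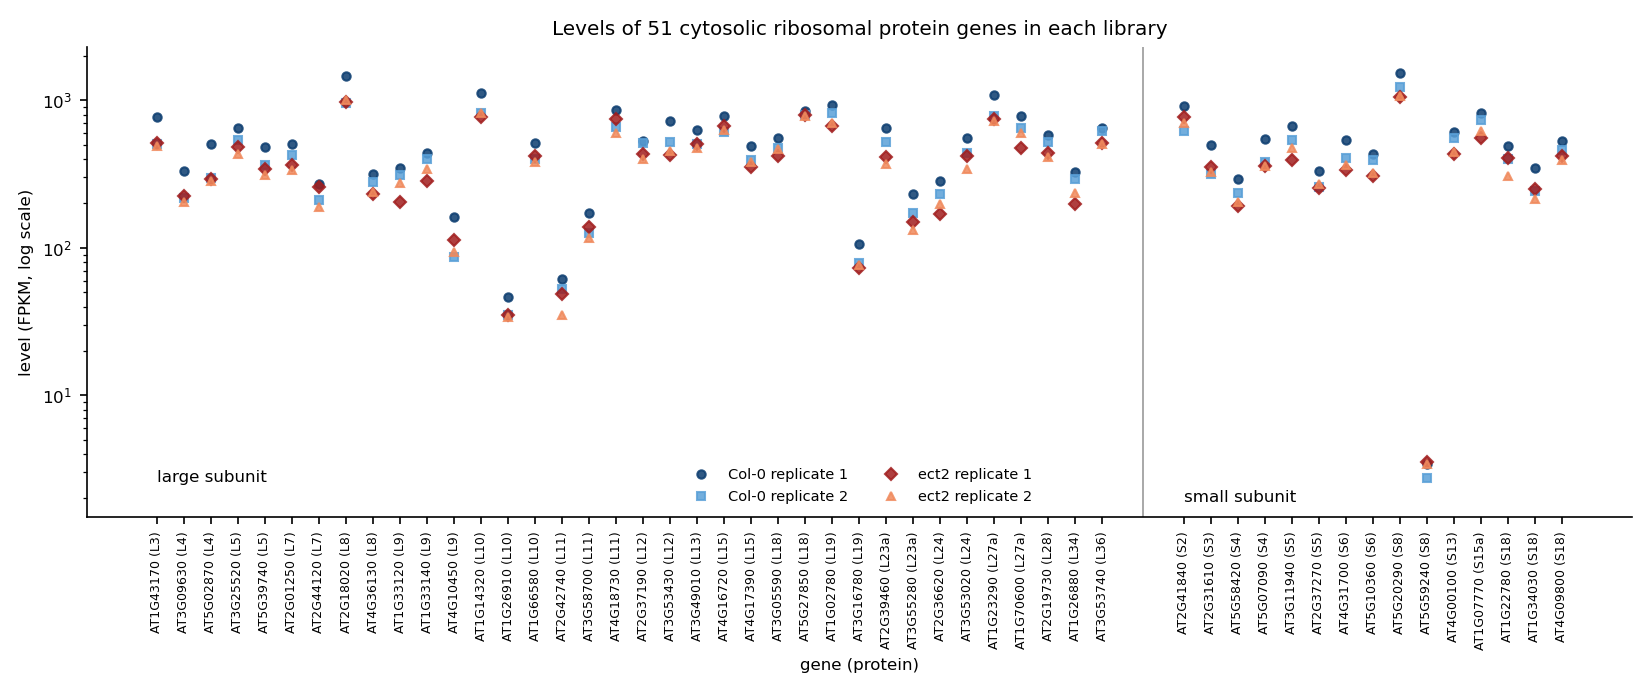
Level of each of the 51 genes (FPKM, log axis) in the 4 libraries, with large subunit genes left and small subunit genes right of the grey line and the protein in brackets. All but AT5G59240 stand at or above 33.8 FPKM, and Col-0 replicate 1 (dark blue circles) is the highest point of 50 of the 51 genes.

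At the other end, AT5G59240, the second gene for S8 (chromosome 5, 23902462 to 23903767, minus strand), was listed at 3.41 and 2.74 FPKM (Col-0) and 3.53 and 3.42 FPKM (*ect2*). Its paralog AT5G20290 was 373 times as high by mean FPKM over 4 libraries, the widest gap between paralogs of any protein here. *RPL10B* (AT1G26910) was listed at 46.6 and 35.3 FPKM (Col-0) and 35.3 and 33.8 FPKM (*ect2*), and *RPL16A* (AT2G42740), named after an older plant scheme and encoding L11, at 61.4 and 52.7 FPKM (Col-0) and 48.7 and 35.2 FPKM (*ect2*). Both lie far below the leading genes for their proteins. AT3G16780, a gene for L19, which reaches across to the small subunit, was listed at 107 and 79.3 FPKM (Col-0) and 72.6 and 76.9 FPKM (*ect2*). AT4G10450, the lowest of 3 genes for L9, was listed at 163 and 86.1 FPKM (Col-0) and 114 and 94.3 FPKM (*ect2*). In AT4G10450 the groups overlapped, because Col-0 held both the highest and the lowest value.

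Levels of large and small subunit genes lay close together in each library. The median over large subunit members was 519.98 FPKM in Col-0 replicate 1, 431 FPKM in Col-0 replicate 2, 416 FPKM in *ect2* replicate 1 and 375 FPKM in *ect2* replicate 2. Over small subunit members it was 533, 399, 357 and 358 FPKM in the same order. The ratio of the large to the small subunit median was 0.976 and 1.08 in Col-0 and 1.16 and 1.05 in *ect2*, and which subunit was higher differed between the Col-0 libraries. Members cover only part of some proteins. With the 25 other listed genes for the same 28 proteins added, members held 81.3% of the summed FPKM. The sum per protein, averaged over 4 libraries, then ran from 591 FPKM for L4 to 1461 FPKM for L27a in the large subunit, with a median of 1037 FPKM. In the small subunit it ran from 778 FPKM for S6 to 1253 FPKM for S15a, with a median of 1040.1 FPKM. The highest protein was 2.47 times the lowest in the large subunit and 1.61 times in the small subunit, while single genes differed by far more.

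Between genotypes, 50 of the 51 members had a negative difference (*ect2* minus Col-0 on the log2(FPKM + 1) scale), and 46 did after quantile normalization. Among all genes tested 51.2% had a negative difference. The median over the members was -0.33, a ratio of 0.795, against -0.0096 over all 19308 genes. It was -0.33 over the 36 large subunit genes and -0.36 over the 15 small subunit genes. The SD between replicates was 0.166 and 0.143 for these medians, each taken alone. Both come from the same libraries, so these SDs do not measure the spread of the gap between subunits, which was not computed. Replicate 2 minus replicate 1 was -0.33 (large) and -0.32 (small) in Col-0, and -0.068 and 0.032 in *ect2*. Without Col-0 replicate 1 these medians were -0.13 and -0.19. No member passed the test: limma called 0 of 51 at an adjusted p below 0.05, with adjusted p between 0.842 and 0.988, and 0 had an unadjusted p below 0.05. The same test called 0.0259% of all genes (5 of 19308), 2 higher (0.0104%) and 3 lower in *ect2* (0.0155%), so a count of 0 among 51 is near the background. Standard errors of the members' differences ran from 0.21 to 0.35 with 2 libraries a genotype. In bulk RNA of whole seedlings, fewer cells with high ribosomal protein expression and less of this RNA per cell cannot be told apart.

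Both *ect2* libraries lay below both Col-0 libraries in 35 of the 51 members, 26 of 36 for the large and 9 of 15 for the small subunit. Over all genes tested this was so for 20.2%. In 1 member, AT5G59240, both *ect2* libraries lay above both Col-0 libraries, which was so for 17.5% of all genes. In the other 15 members the genotypes overlapped. Among tested genes with a mean of 100 FPKM or more that are not listed as cytosolic ribosomal protein genes, both *ect2* libraries were lower in 26.8% and the median difference was -0.10 (-0.0087 under quantile normalization and -0.052 without Col-0 replicate 1), over 1417 genes.

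The size of the difference rested on Col-0 replicate 1. That library held the highest value in 50 of the 51 members, against 31.2% of all genes tested and 42.9% of the 1417 genes at 100 FPKM or more. It also did so in 89.0% of other cytosolic and 88.2% of plastid ribosomal protein genes. The share was 80.0% for ribosome biogenesis, 78.9% for translation factors and 42.9% for dividing cell markers. The members' level in it was 1.06 to 1.74 times the mean of the other 3 libraries, with a median of 1.34 times. Without Col-0 replicate 1 the median difference was -0.17, against -0.033 over all genes, and 41 of 51 members stayed negative, against 54.2% of all genes. Without Col-0 replicate 2 the median was -0.51, and without *ect2* replicate 1 or 2 it was -0.34 and -0.30. Under quantile normalization it was -0.19. Between replicates of the same genotype the median difference (replicate 2 minus replicate 1) was -0.32 in Col-0 and -0.048 in *ect2*. The Col-0 libraries thus differed from each other about as much as the genotype means did. A gap between single libraries and a gap between means of 2 libraries are not the same measure. Seed storage and sugar starvation markers also set Col-0 replicate 1 apart, as given above, and their part in the members' levels was not tested.

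**Figure D2:**
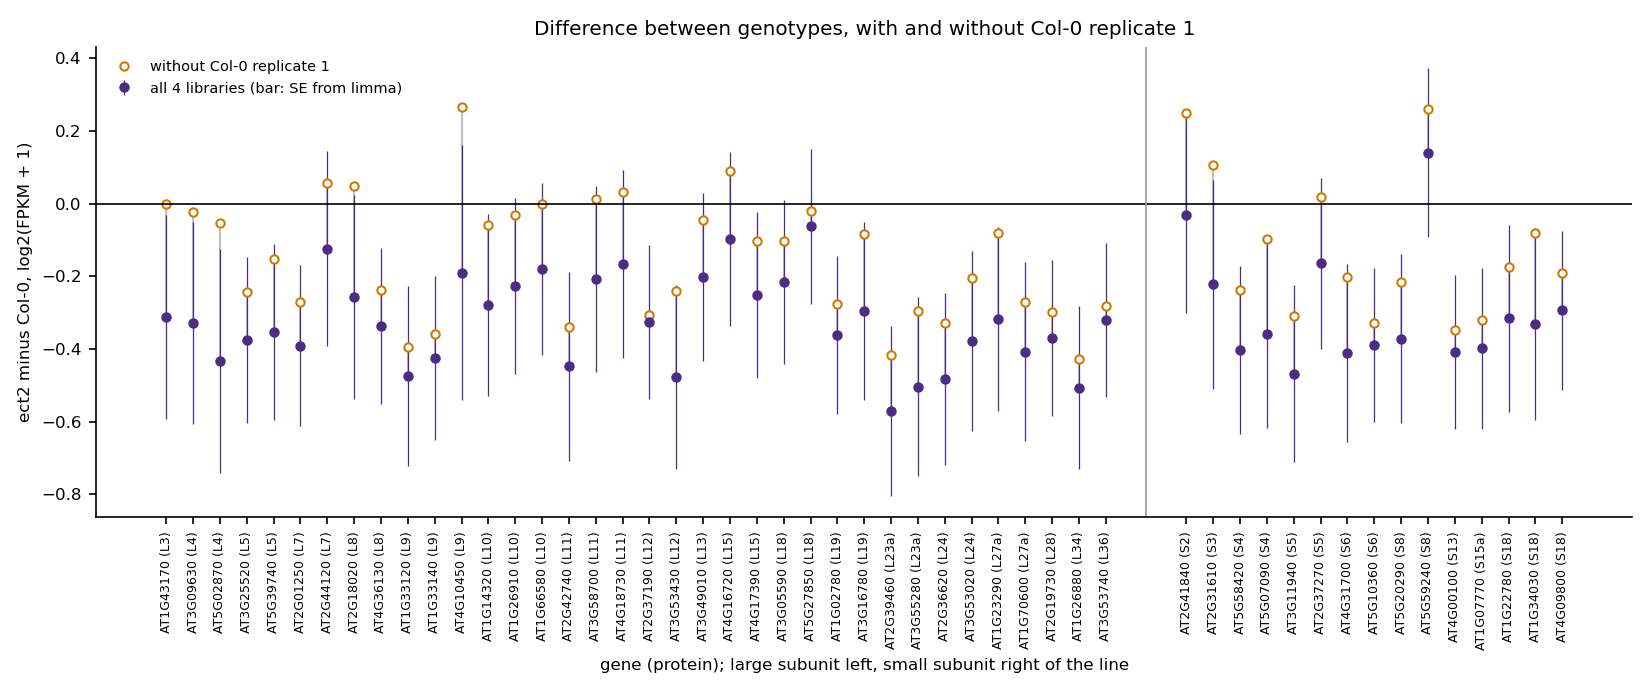
Difference between genotypes for each member (*ect2* minus Col-0, log2(FPKM + 1)), with all 4 libraries (filled, bar: standard error) and without Col-0 replicate 1 (open). With 4 libraries 50 of 51 points lie below 0, and without Col-0 replicate 1 41 do, with a median of -0.17.

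The most negative difference among large subunit genes was that of a gene for L23a, a protein at the exit of the nascent peptide. *RPL23AA* (AT2G39460) was listed at 647 and 522 FPKM (Col-0) and 415 and 369 FPKM (*ect2*), and *RPL23AB* (AT3G55280) at 231 and 173 FPKM (Col-0) and 149 and 132 FPKM (*ect2*). Both *ect2* values lay below both Col-0 values in each gene. The differences were -0.57 ± 0.23 and -0.50 ± 0.25 (SE), and *RPL23AA* had the smallest unadjusted p of any member, 0.0535 (limma, adjusted p = 0.842). Without Col-0 replicate 1 they were -0.42 and -0.30. AT1G26880, a gene for L34, was listed at 326 and 293 FPKM (Col-0) and 199.7 and 237 FPKM (*ect2*), a difference of -0.51 ± 0.22. Its difference was -0.43 without Col-0 replicate 1, the most negative of any member under that choice.

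L24 is a late-joining protein, and its gene *STV1* is known for a role in translation of messages with upstream open reading frames. *RPL24A* (AT2G36620) was listed at 286 and 231 FPKM (Col-0) and 169 and 199 FPKM (*ect2*), a difference of -0.48 ± 0.24, and of -0.33 without Col-0 replicate 1. *STV1* (AT3G53020) was listed at 555 and 437 FPKM (Col-0) and 419.6 and 342 FPKM (*ect2*). The genotypes did not overlap in either gene, although *ect2* replicate 1 was the lower *ect2* library for *RPL24A* and the higher one for *STV1*. For L12, part of the base of the stalk that recruits translation factors, AT3G53430 was listed at 725 and 522 FPKM (Col-0) and 429 and 456 FPKM (*ect2*), a difference of -0.48 ± 0.25, and of -0.24 without Col-0 replicate 1. Its paralog AT2G37190 was listed at 528 and 515 FPKM (Col-0) and 432 and 400.2 FPKM (*ect2*). Both genes had no overlap, and the Col-0 libraries lay closer together for AT2G37190 than for AT3G53430.

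L9 is encoded by 3 members, of which AT1G33120 and *PGY2* (AT1G33140) lie near each other on the plus strand of chromosome 1, at 12010879 to 12012547 and 12023225 to 12024783. *PGY2* is known from mutants with altered leaf shape. AT1G33120 was listed at 348 and 311 FPKM (Col-0) and 204 and 275 FPKM (*ect2*), and *PGY2* at 440.0 and 402 FPKM (Col-0) and 285 and 344 FPKM (*ect2*). In both the 4 values stood in the same order, with *ect2* replicate 1 lowest. Their coding sequences are 99.1% identical, so reads may have been divided between them by the authors' software, and their separate levels are uncertain.

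L5 and L11 bind a small ribosomal RNA of the large subunit and join it together. The L5 gene *RPL5A* (AT3G25520, also *PGY3*) was listed at 649 and 540.4 FPKM (Col-0) and 480.3 and 434 FPKM (*ect2*), and *RPL5B* (AT5G39740) at 481 and 364 FPKM (Col-0) and 343 and 313 FPKM (*ect2*). The genotypes did not overlap in either. Of the L11 genes, *RPL16B* (AT4G18730) was the leading one, at 864 and 657 FPKM (Col-0) and 749 and 601 FPKM (*ect2*), with overlapping genotypes. L4 and L3 lie deep in the large subunit, L4 along the tunnel for the nascent peptide. AT5G02870 for L4 was listed at 506 and 299 FPKM (Col-0) and 293 and 283 FPKM (*ect2*), and AT3G09630 at 334 and 218 FPKM (Col-0) and 223 and 206 FPKM (*ect2*). *RP1* (AT1G43170) for L3 was listed at 776 and 503 FPKM (Col-0) and 516 and 490.0 FPKM (*ect2*). In these 3 genes the other 3 libraries lay close together and Col-0 replicate 1 stood above them, and without it the differences were -0.054 for AT5G02870 and -0.022 for AT3G09630, and that of *RP1* was -2.77e-05.

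For L7, AT2G01250 was listed at 502 and 425 FPKM (Col-0) and 365 and 339.8 FPKM (*ect2*) and did not overlap between genotypes, whereas AT2G44120, at 272 and 212 FPKM (Col-0) and 258 and 188 FPKM (*ect2*), did. AT4G36130, the lower of the 2 members for L8, was listed at 319 and 278 FPKM (Col-0) and 231 and 239.8 FPKM (*ect2*). For L27a, *RPL27AB* (AT1G23290) was listed at 1079.5 and 779 FPKM (Col-0) and 751 and 720.4 FPKM (*ect2*), and AT1G70600 at 784 and 648 FPKM (Col-0) and 478 and 603 FPKM (*ect2*). *ect2* lay below Col-0 in both genes for L27a and in AT4G36130. For L19, the leading gene *emb2386* (AT1G02780), named for an embryo-defective mutant, was listed at 932 and 827 FPKM (Col-0) and 668 and 697 FPKM (*ect2*), without overlap. The middle one of the 3 members for L11, AT3G58700, was listed at 172 and 126 FPKM (Col-0) and 139 and 117 FPKM (*ect2*), with overlap.

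Among the large subunit proteins with a single member, *BBC1* (AT3G49010) for L13 was listed at 631 and 508 FPKM (Col-0) and 509.5 and 476 FPKM (*ect2*), with overlap. AT2G19730 for L28 was listed at 579.8 and 524 FPKM (Col-0) and 439.7 and 414 FPKM (*ect2*), and AT3G53740 for L36 at 654 and 619.6 FPKM (Col-0) and 514 and 506 FPKM (*ect2*). Neither of these overlapped between genotypes, and their differences of -0.37 ± 0.21 and -0.32 ± 0.21 were -0.30 and -0.28 without Col-0 replicate 1.

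Smaller differences were found in L15, L18 and L10. For L15, AT4G16720 was listed at 789 and 609.6 FPKM (Col-0) and 666 and 631 FPKM (*ect2*), a difference of -0.10 ± 0.24, and of 0.088 without Col-0 replicate 1. Its paralog AT4G17390 was listed at 489 and 397 FPKM (Col-0) and 356 and 385 FPKM (*ect2*). Only the latter had no overlap between genotypes. For L18, AT5G27850 was listed at 849 and 801 FPKM (Col-0) and 795 and 783 FPKM (*ect2*), the narrowest range of any member relative to its level, with a difference of -0.06 ± 0.21, and of -0.021 without Col-0 replicate 1. *RPL18* (AT3G05590) was listed at 559 and 478 FPKM (Col-0) and 420.4 and 471 FPKM (*ect2*). *SAG24* (AT1G66580), the middle one of 3 genes for L10 and named for its induction in senescence, was listed at 512 and 399 FPKM (Col-0) and 417 and 381 FPKM (*ect2*), with overlapping genotypes. *RPL10B* was the lowest of these genes in every library, and its 3 libraries other than Col-0 replicate 1 lay within 33.8 to 35.3 FPKM.

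Among small subunit genes, *RPS5A* (AT3G11940), whose promoter is widely used to drive expression in dividing cells, was listed at 670.5 and 538 FPKM (Col-0) and 394 and 477 FPKM (*ect2*). Its difference was -0.47 ± 0.24, the most negative of the small subunit, and -0.31 without Col-0 replicate 1, and the genotypes did not overlap. The paralog *RPS5B* (AT2G37270) was listed at 332 and 257 FPKM (Col-0) and 253 and 269 FPKM (*ect2*), with overlap and a difference of -0.16 ± 0.24, which was 0.019 without Col-0 replicate 1. S6 is the ribosomal protein phosphorylated downstream of TOR. Its genes *RPS6A* (AT4G31700) and *RPS6B* (AT5G10360, *EMB3010*) were listed at 542 and 406 FPKM (Col-0) and 339 and 367 FPKM (*ect2*), and at 431 and 397 FPKM (Col-0) and 308 and 323 FPKM (*ect2*). Both had no overlap, with differences of -0.41 ± 0.24 and -0.39 ± 0.21. Without Col-0 replicate 1 these lay further apart, at -0.20 for *RPS6A* and -0.33 for *RPS6B*.

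S18 and S13 are known in *Arabidopsis* from mutants with pointed first leaves. *PFL* (AT1G22780) for S18 was listed at 487 and 399 FPKM (Col-0) and 409 and 307 FPKM (*ect2*), and *RPS18C* (AT4G09800) at 533 and 463 FPKM (Col-0) and 418 and 392 FPKM (*ect2*). The third gene, AT1G34030, was the lowest, at 347 and 245 FPKM (Col-0) and 249.7 and 214 FPKM (*ect2*). Only *RPS18C* had no overlap. *RPS13A* (AT4G00100, *PFL2*) was listed at 609 and 559.8 FPKM (Col-0) and 434 and 446 FPKM (*ect2*), a difference of -0.41 ± 0.21 that was -0.35 without Col-0 replicate 1. For S4, AT5G07090 was listed at 549 and 383 FPKM (Col-0) and 357 and 358 FPKM (*ect2*), and AT5G58420 at 295 and 234 FPKM (Col-0) and 193 and 204 FPKM (*ect2*), both without overlap.

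AT2G41840, a gene for S2 at the entry of the messenger RNA channel, was listed at 913 and 621 FPKM (Col-0) and 775 and 702 FPKM (*ect2*). Col-0 replicate 2 was its lowest library and Col-0 replicate 1 its highest, and the difference of -0.03 ± 0.27 became 0.25 without Col-0 replicate 1. AT2G31610 for S3, which lies at the same channel, was listed at 499 and 316 FPKM (Col-0) and 352 and 329 FPKM (*ect2*). It had the same lowest and highest library, and its difference was -0.22 ± 0.29 with 4 libraries and 0.11 without Col-0 replicate 1. *RPS15A* (AT1G07770) was listed at 817 and 732 FPKM (Col-0) and 554 and 621 FPKM (*ect2*), without overlap. AT5G59240 for S8 was the only member with a positive difference in the fit of 4 libraries, 0.14 ± 0.23 and 0.26 without Col-0 replicate 1, at a level near 3 FPKM in every library.

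Which paralog of a protein had the highest level hardly varied between libraries. Of the 28 proteins, 19 have 2 or more members (15 have 2 and 4 have 3), 42 genes in all, and the same gene led in all 4 libraries in 18 of the 19. L12 was the exception, where AT3G53430 held 49.8% to 57.9% and dropped just below its paralog in *ect2* replicate 1. The mean share of the leading gene over 4 libraries ran from 40.6% for *RPS18C* to 99.7% for AT5G20290. Between genotypes this share differed by a median of 1.21 percentage points, from 0.104 to 4.81 points. Between replicates it differed by a median of 2.32 points in Col-0 and 1.22 points in *ect2*. The genotype value is taken between means of 2 libraries and the replicate value between single libraries, so their sizes are not directly comparable. The median between genotypes was 0.874 to 1.57 points as each library was left out, and 1.48 points with all listed paralogs counted in the sum. In 6 of the 19 proteins the genotypes did not overlap in the share (31.6%), 2 higher and 4 lower in *ect2*. Among the levels of all genes tested 37.7% did not overlap in either direction. Levels and shares are different measures, and shares of other gene pairs were not computed. The 31.6% is therefore not read as a result about these proteins.

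The widest of these was S5, in which *RPS5A* held 66.9% and 67.6% in Col-0 and 60.9% and 63.9% in *ect2*, a difference of -4.81 points. For L7, AT2G01250 held 64.9% and 66.8% in Col-0 and 58.6% and 64.4% in *ect2*, where the *ect2* libraries differed from each other by 5.73 points. For S8, AT5G59240 held 0.223% and 0.222% in Col-0 and 0.336% and 0.318% in *ect2*, and the second gene was a trace in each library. The genes for L8 were unequal, with *EMB2296* at 77.5% to 82.1%, whereas those for S6 were nearly even, with *RPS6A* at 50.6% to 55.7%. Coding sequences of the 27 pairs of member paralogs were 81.0% to 99.1% identical over aligned bases, with a median of 87.9%. Among these pairs only AT1G33120 and *PGY2* reached 95%. Paralogs that are not members were not aligned. How the authors' software treated reads that match several paralogs is not given, so shares within the closest pairs are uncertain.

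**Figure D3:**
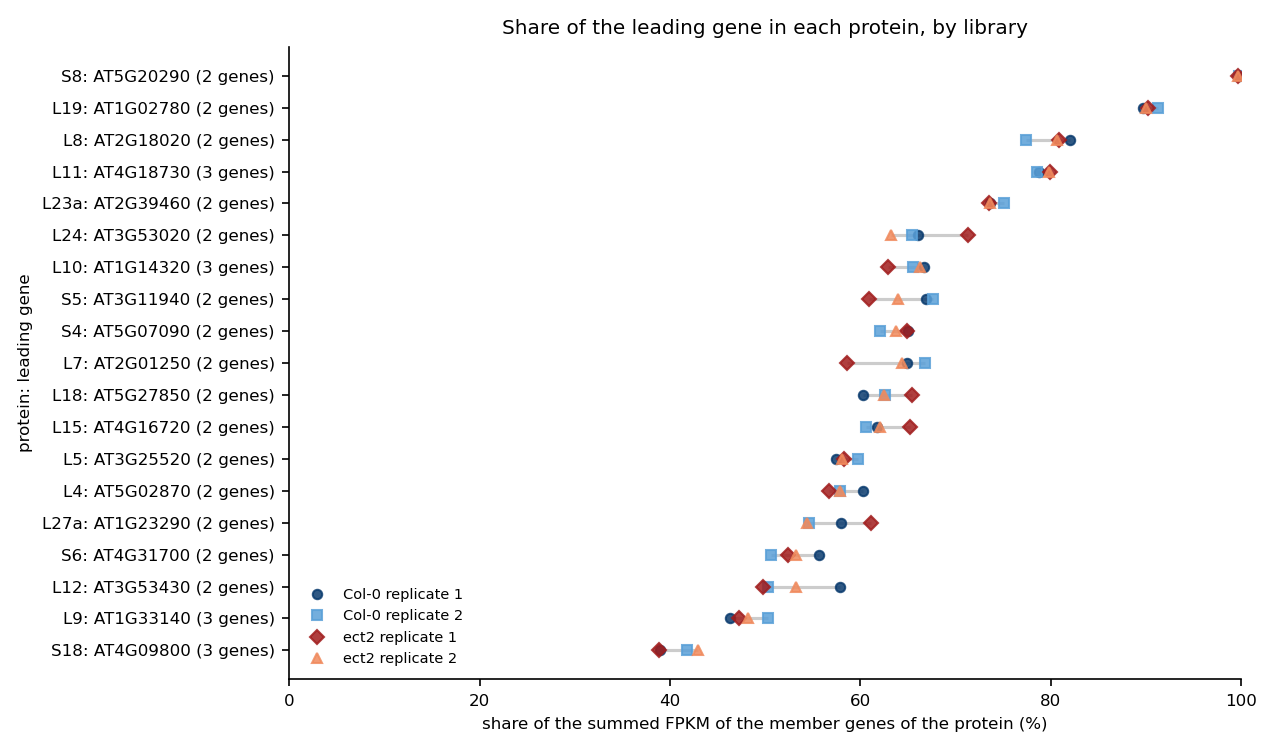
Share of the leading gene in the summed FPKM of the member genes of its protein (%), for 19 proteins and 4 libraries, with a grey line over the range. The order of proteins is by mean share, from 40.6% for S18 to 99.7% for S8, and the points of the 2 genotypes lie close together, with the widest difference, -4.81 points, for S5.

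Other lists give the setting of these values. Of 168 further cytosolic ribosomal protein genes, 155 were tested, and all 155 had a negative difference (152 under quantile normalization and 154 with TMM factors), with a median of -0.35. Both *ect2* libraries lay below both Col-0 libraries in 77.4% of them. Their median without Col-0 replicate 1 was -0.19. Nuclear genes for plastid ribosomal proteins, which make a separate ribosome, had a negative difference in 34 of 34 (32 under quantile normalization), with a median of -0.42, of -0.30 without Col-0 replicate 1 and of -0.25 under quantile normalization. Both *ect2* libraries were lower in 30 of the 34. Limma called 0 genes of either list, with 9 (5.81%) and 3 (8.82%) at an unadjusted p below 0.05, beside 4.86% of all genes.

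Genes for ribosome biogenesis, such as those for nucleolins, fibrillarins and ribosomal RNA processing factors, had a negative difference in 18 of 25 tested, with a median of -0.10. Their median was 0.11 without Col-0 replicate 1, with a negative difference in 6 of 25. Translation factor genes had a negative difference in 14 of 19, with a median of -0.15, and 0.10 without Col-0 replicate 1. Both *ect2* libraries were lower in 4 (16.0%) and 3 (15.8%) genes of these lists, against 20.2% of all genes, and 3 translation factor genes (15.8%) had both *ect2* libraries higher. The 6 TOR signalling genes had a median of 0.014, and of -0.020 with library medians set equal and -0.075 without Col-0 replicate 1. Markers of dividing cells, which contain many ribosomes, summed to 117.5 and 117.4 FPKM in Col-0 and to 91.8 and 82.1 FPKM in *ect2*, and 7 of 7 had a negative difference, with a median of -0.34 and of -0.22 without Col-0 replicate 1. Their part in the members' difference was not tested. Limma called 0 genes of these 4 lists, with 0, 1, 0 and 2 at an unadjusted p below 0.05, against 4.86% of all genes.

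**Figure D4:**
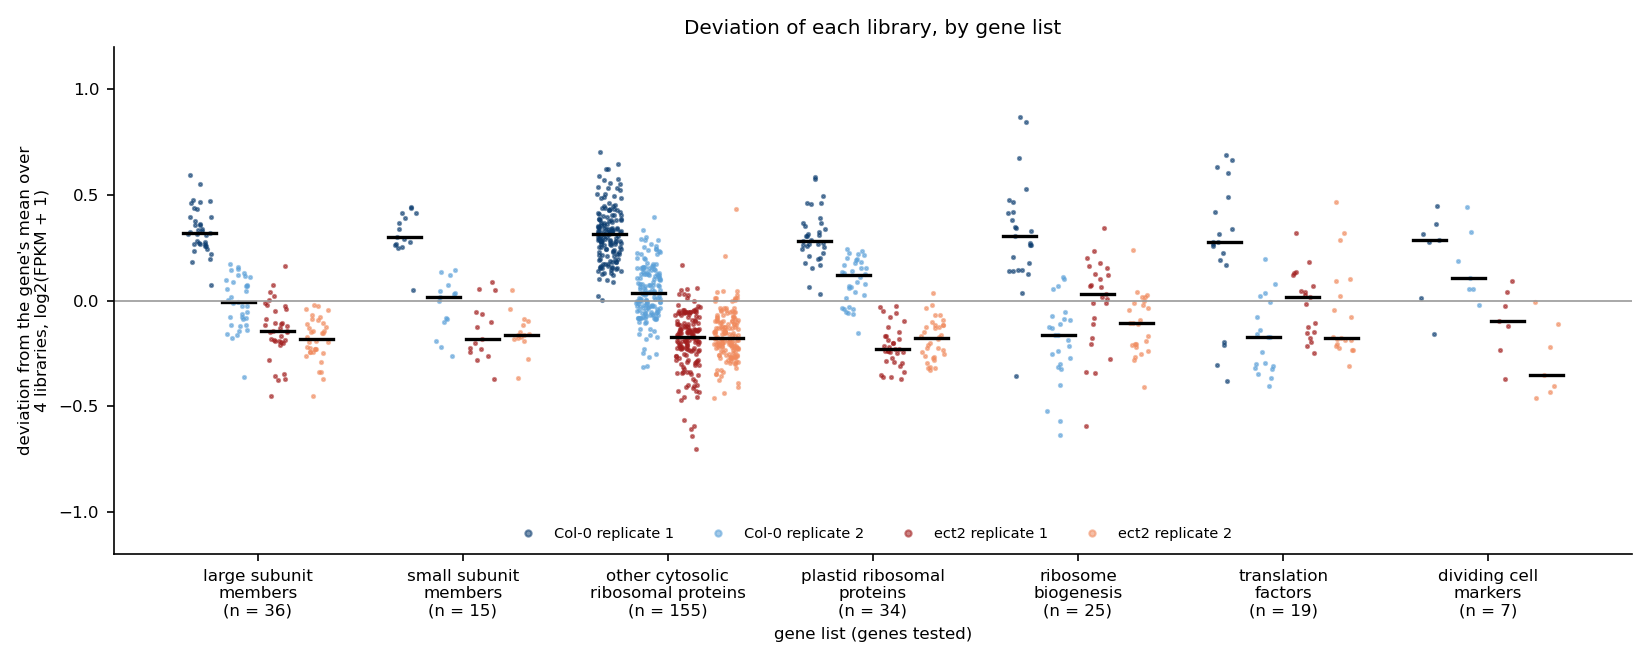
Deviation of each library from a gene's mean over 4 libraries (log2(FPKM + 1)), 1 point per gene and library, black bars at the median, for the members and 5 other lists. Col-0 replicate 1 has the highest median in every list shown, at 0.32 for large subunit members. The median of Col-0 replicate 2 lies above both *ect2* libraries for ribosomal proteins and dividing cell markers, but not for ribosome biogenesis or translation factors.

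The members' promoters were compared for short motifs. The telo-box, AAACCCT, and the site II element, TGGGCC or TGGGCT, are known from promoters of plant ribosomal protein genes. Both were searched on both strands from 250 bases before to 50 bases after the annotated transcript start. A telo-box was found in 30 of 51 members (58.8%) and in 10.02% of 27431 nuclear protein-coding genes. A site II element was found in 41 of 51 (80.4%) and in 21.7% of all. Both motifs occurred in 24 members (47.1%, against 3.19% of all), and neither in 4 (7.84%, against 71.4%), which were *RPL23AA*, AT1G26880, *RPS5B* and *RPS13A*. The telo-box was found in 19 of 36 large and 11 of 15 small subunit genes, and the site II element in 31 of 36 and 10 of 15. The TATA-box letters TATAAA, looked at for comparison after the other motifs, were found in 58.8% of members and 52.1% of all genes. Of the other cytosolic ribosomal protein genes 48.5% had a telo-box and 74.3% a site II element, and of those for plastid ribosomal proteins 14.7% and 47.1%.

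The telo-box lay close to the start. Of 36 matches, 30 began within 50 bases of it, with a median position of 2 bases after the first transcribed base, so many lie in the transcribed leader. With the window ended at the start, 12 of 51 members (23.5%) and 7.33% of all genes had one. Site II matches lay further upstream, with 70 of 103 beginning in the 100 bases before the start and a median of -44. Matches that overlap each other were counted separately. In *RPS5A* a telo-box and a site II element overlap by 1 base.

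**Figure D5:**
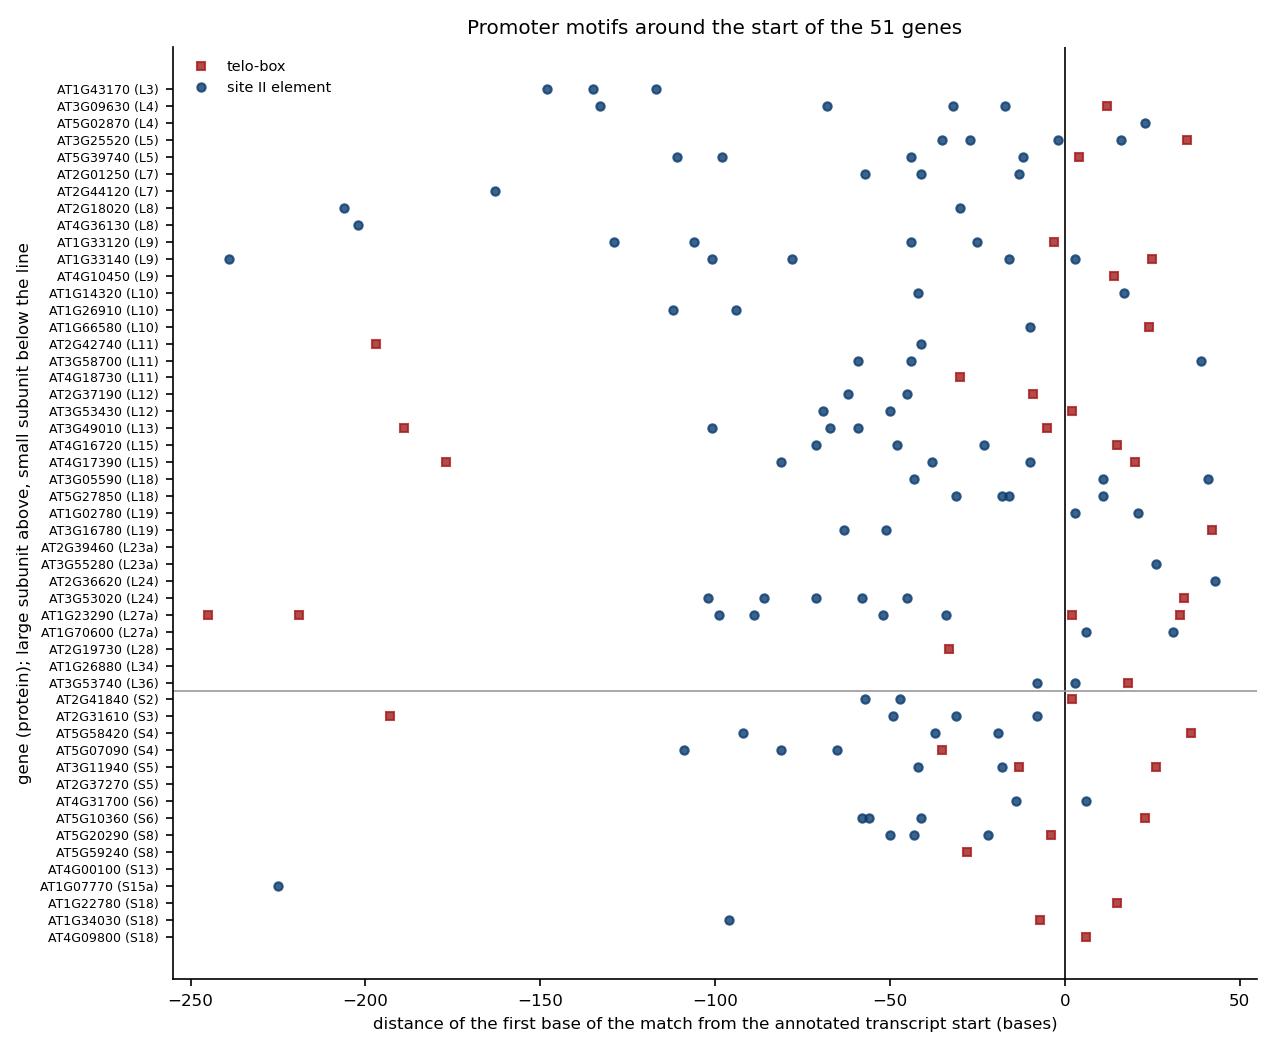
Position of the first base of each telo-box (red squares) and site II element (blue circles) relative to the annotated transcript start (bases), 1 row per member. Of the 36 telo-box matches 30 lie within 50 bases of the start, while site II elements have their median at -44.

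The windows of 30 bases around the telo-box of the L9 and L5 genes are shown to set paralogs side by side, with those of the highest member, AT5G20290, and of *RPS5A*, where both motifs overlap, read 5′ to 3′ on the strand of the gene from RefSeq's TAIR10.1. Capitals mark telo-box and site II letters, and capitals at an edge belong to a site II match that the window cuts.
AT1G33120, chr1:12010865-12010894, plus strand: gaaagatatttAGGGTTTtttctcttgata
AT1G33140, chr1:12023239-12023268, plus strand: gaaagatatttAGGGTTTtttctcttgata
AT4G10450, chr4:6464526-6464555, minus strand: atataagctttAGGGTTTtcttctctctgt
AT3G25520, chr3:9271416-9271445, minus strand: CAcgaggagttttctAGGGTTTtgtcttat
AT5G39740, chr5:15903272-15903301, plus strand: AagagaactctAGGGTTTtgtcttataagc
AT5G20290, chr5:6853092-6853121, minus strand: gatgataacctAGGGTTTatactccctata
AT3G11940, chr3:3779540-3779569, minus strand: cattagAGCCCAAACCCTaaatttctcatc

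The windows of AT1G33120 and *PGY2* were identical, and that of AT4G10450, the lowest gene for L9, differed outside the motif. AT4G10450 had no site II element from 250 bases before to 50 after its start, where the other 2 had 4 and 5 matches. The highest member, AT5G20290, had 3 site II matches, and its paralog AT5G59240, the lowest member at 3.28 FPKM on average, had 0. A low level and a lack of site II letters did not go together in all members: *RPL16B* and *RPS18C*, the leading genes for L11 and S18, had no site II match, and *RPL10B*, at 37.8 FPKM on average, had 2. A match is a description of letters and shows no binding.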

How the data were processed

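Polyadenylated RNA of 14-day seedlings was sequenced in 4 libraries, 2 of Col-0 and 2 of *ect2*. The authors deposited 1 value per gene and library, taken here as FPKM, a unit inferred from the values. The submitters' processing notes name cutadapt, TopHat and TAIR10, and the quantifier and how it treated reads shared by paralogs are, in the sources used here, not given. Genes with at least 1 FPKM in at least 2 libraries (19308 of 33544) were compared on log2(FPKM + 1) with limma 3.58.1 (trend and robust) in R 4.3.3, with Benjamini-Hochberg adjustment over all genes tested and a threshold of 0.05, two-sided. Fold changes on this scale understate those of low genes. The members and all gene lists, written by hand, were chosen with earlier results of these data known. Values in all libraries were planned for the highest and lowest member of each protein, the 5 highest and 5 lowest members and the 5 largest differences each way, and are given for all members. Proteins follow the eukaryotic naming. Positions, sequences and motifs came from RefSeq's TAIR10.1 (32809 gene IDs matched), and coding sequences were aligned pairwise with Biopython 1.88. Alternatives were other scalings, filters and pseudocounts, a replicate block and each library left out. The promoter window of another member is not reported here.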

Additional observations from a re-analysis of the deposited data

How the results depend on the processing

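With the replicate block, the median difference of the members was -0.33 and 6 genes were called, none of them a member. The labels do not say that a number marks a shared batch, and the deviations of same-numbered libraries correlated at 0.014. Both libraries numbered 1 had the greater relative depth (1.45 and 1.38, against 1 and 0.973). AT2G01021 also held less of their summed FPKM (27.7% and 23.8%, against 33.0% and 36.8%). Whether the numbers mark a batch was not tested. The number of genes called ran from 0 to 520 as each library was left out (11 without the first Col-0 library, 520 without the second, 0 without either *ect2* library), against 5, and 0 members were called under any alternative run. Without Col-0 replicate 2, 18 members (35.3%) had an unadjusted p below 0.05, against 20.8% of all genes. Leaving out each library, the median difference ran from -0.51 to -0.17 over all members, from -0.51 to -0.13 over large and from -0.48 to -0.19 over small subunit members. Members that crossed 0 when a library was left out ranged as follows: AT2G44120 from -0.35 to 0.10, AT2G18020 from -0.56 to 0.048, AT4G10450 from -0.64 to 0.27, AT3G58700 from -0.43 to 0.013, AT4G18730 from -0.36 to 0.031, AT4G16720 from -0.28 to 0.088, AT2G41840 from -0.31 to 0.25, AT2G31610 from -0.55 to 0.11 and AT2G37270 from -0.35 to 0.019. All 9 were positive without Col-0 replicate 1, and AT2G44120 and AT2G41840 also without *ect2* replicate 2. Under quantile normalization AT1G66580 was at 0.0044, AT4G16720 at 0.042, AT5G27850 at 0.081 and AT2G41840 at 0.12. The share of members with a telo-box was 23.5% with the window ended at the start. The cause of these shifts was not tested, except that the last window holds fewer bases. The number of reads is not given, and 2 libraries per genotype limit the precision.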
